A study of Zea mays with 8 samples.

Results

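Of the transcripts that the maize GeneChip reads without naming their gene, 51 probe sets gave stronger signals in seedlings with an extra copy of a chromosome arm than in their wild-type siblings, with mean differences above the ratio of 3 gene copies to 2. A probe set is a group of short probes that together report 1 transcript. The array holds 17621 probe sets once its own controls are set aside, and 16168 of these have no gene symbol in the platform annotation. Of those, 11237 had a geometric mean intensity over the 8 arrays of at least 26.9 and could be chosen. For each of the 4 replicate numbers, d is the log2 intensity in DpDf minus the log2 intensity in wild type, and a probe set was kept when its mean d was at least 0.75 and each of its 4 values of d was at least 0.4. The 51 probe sets, from 49 transcript clusters of the array's design, are 0.454% of the 11237. The intensities in the 8 arrays therefore chose them, and their differences between DpDf and wild type are given as a description. They have no gene name, function or chromosome in the sources used here, and are called by their probe set IDs.

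RNA came from all above-ground tissue of maize (Zea mays) seedlings in the inbred B73 background, harvested 11 days after planting. DpDf plants, short for duplicate-deficient, carry 1 normal chromosome 6 and 1 translocated T5-6b chromosome on which most of the short arm of chromosome 5 replaces the tip of the chromosome 6 satellite, so they have 3 copies of that arm and 1 copy of the tip. Wild-type siblings came from the same self-pollinated DpDf parents and have 2 copies of each, and plants of both kinds were told apart by a marker close to the chromosome 5 break. There were 4 pools of DpDf plants and 4 pools of wild-type plants, each of 12 seedlings, and a DpDf pool and a wild-type pool with the same replicate number came from the same sowing. Replicates 2 and 4 came from 1 self-pollinated seed source, and replicates 1 and 3 from another. A pool averages its plants, and in whole shoots a change in the number of cells of a type and a change in RNA per cell cannot be told apart.

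An organism with an added chromosome segment is a segmental aneuploid. Where each gene copy is transcribed alike, a gene on the added segment gives RNA in proportion to its copies, which is called a dosage effect. Many genes follow the copy number, some are held near the normal level, which is called dosage compensation, and genes elsewhere in the genome can also respond. The ratio of 3 copies to 2 is 0.58 on the log2 scale. An array intensity depends on the probes as well as on the RNA, so intensities are compared here between pools for 1 probe set and not as RNA levels between probe sets.

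Array medians lay between 135.9 and 138.9 in the DpDf pools and between 136.6 and 142.4 in the wild-type pools. All 7 leaf genes of a marker list were above an intensity of 27 in every array, with summed levels of 63361 to 73259 in DpDf and 52821 to 66681 in wild type. Of 5 kernel genes with a probe set, 4 (fl2, o2, glb1 and sh2) were under 27 in every array and bt2 was above it, and the summed kernel level was 183.6 to 206.2 in DpDf and 176.0 to 204.0 in wild type. For 5 control transcripts, the mean log2 signal of 3′ probe sets minus that of 5′ probe sets, which grows as RNA is shortened, was 1.52, 1.20, 0.98 and 1.09 in DpDf replicates 1 to 4 and 0.81, 1.07, 0.79 and 0.97 in wild-type replicates 1 to 4. This measure was higher in DpDf in every pair, by 0.71 in pair 1 and by 0.13 to 0.19 in the other pairs. Its part in the differences below was not tested beyond the fits given with it.

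Across the 51 probe sets the median of mean d was 0.88, a 1.83-fold level in DpDf, while the median over all 12341 probe sets that passed the level filter was -0.02. They are described below by limits of 1 and 2 on mean d, which were set for the description and mark no break at 1. In 3 of them mean d was above 2, in 7 it lay between 1 and 2, and in the remaining 41 it lay between 0.75 and 0.96, which is 1.68-fold to 1.94-fold, with a median of 0.84. In 47 of the 51, every DpDf pool was above every wild-type pool, and 6.51% of all tested probe sets had groups that did not overlap in this direction. The groups of Zm.14275.1.A1_at, Zm.16289.1.A1_at, Zm.2221.1.S1_at and Zm.1099.1.A1_at overlapped. In 37 of the 51 each of the 4 values of d was above the copy ratio of 0.58. In single pairs, 1.77% to 3.34% of the 11237 unannotated probe sets were above it. The rule set limits on the same values of d, so nothing is read from the count.

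**Figure D1:**
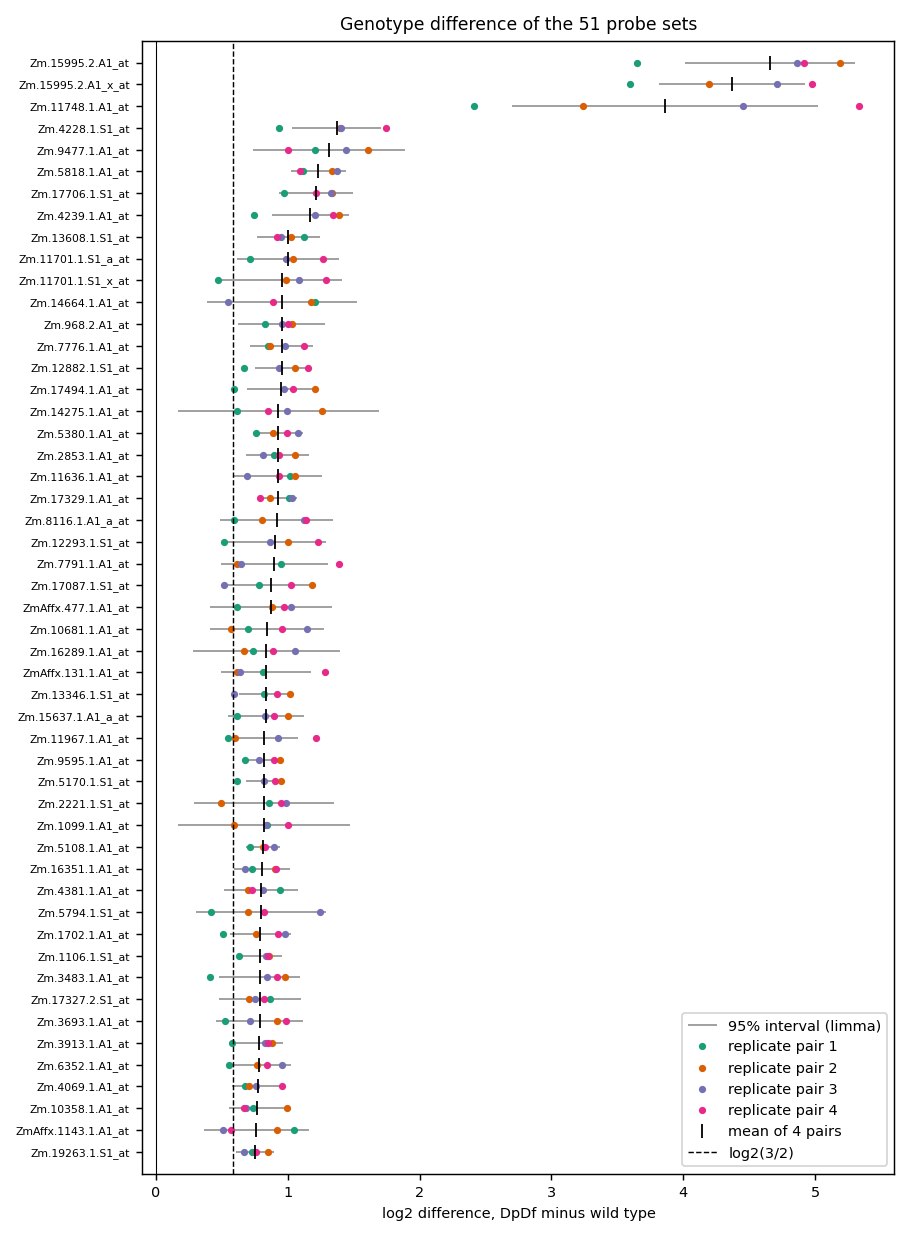
Difference in log2 intensity, DpDf minus wild type, for each of the 51 unannotated probe sets in order of mean d, with a point for each replicate pair, a tick at the mean of the 4 pairs, the 95% limma interval as a line and a dashed line at the copy ratio of 3 to 2. The top 3 have means from 3.86 to 4.65, and 41 have means between 0.75 and 0.96, a little above the copy ratio.

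The largest differences belonged to 2 probe sets of 1 transcript cluster and to Zm.11748.1.A1_at. Zm.15995.2.A1_at had intensities of 394, 365, 436 and 459 in the DpDf pools, in the order of their replicate numbers, against 31.5, 9.99, 15.0 and 15.2 in the wild-type pools in the same order, which is kept below. Zm.15995.2.A1_x_at, whose suffix marks probes that can also match other transcripts, had intensities of 1703, 1535, 1615 and 1739 in DpDf, against 140.5, 83.8, 61.6 and 55.2 in wild type. Both probe sets were high in all 4 DpDf pools and low in all 4 wild-type pools, with wild-type replicate 1 the highest of its group in both. Mean d was 4.65 (SE 0.29, n = 4 per group), or 25.2-fold, for the first and 4.37 (SE 0.25), or 20.7-fold, for the second. Unless stated otherwise, each SE is from limma with genotype as the only term, which does not use the pairing of the pools. Zm.11748.1.A1_at had intensities of 312.8, 383, 321.5 and 341 in DpDf, against 58.7, 40.5, 14.7 and 8.47 in wild type. Its mean d was 3.86 (SE 0.52), or 14.5-fold, and its wild-type SD of 1.29 on the log2 scale was the widest of the 51, with replicates 1 and 2 above replicates 3 and 4.

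Of these 3 probe sets, 2 came near the lower end of the scale in wild type, where the size of a ratio depends on how low values are treated. Zm.15995.2.A1_at was under 27 in 3 of 4 wild-type pools and Zm.11748.1.A1_at in 2 of 4. Their wild-type geometric means, 16.3 and 23.3, were under the limit of the level filter. Both passed that filter only because their DpDf pools raised the mean over all arrays. With each value under 27 set to 27, a choice made after seeing the data, the difference was 14.7-fold for Zm.15995.2.A1_at and 9.33-fold for Zm.11748.1.A1_at. Zm.15995.2.A1_x_at had no value under 27 and stayed at 20.7-fold. In all 3 the 4 DpDf pools were close together, with SDs of 0.15, 0.08 and 0.13 on the log2 scale for Zm.15995.2.A1_at, Zm.15995.2.A1_x_at and Zm.11748.1.A1_at, against SDs of 0.69, 0.60 and 1.29 in wild type.

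**Figure D2:**
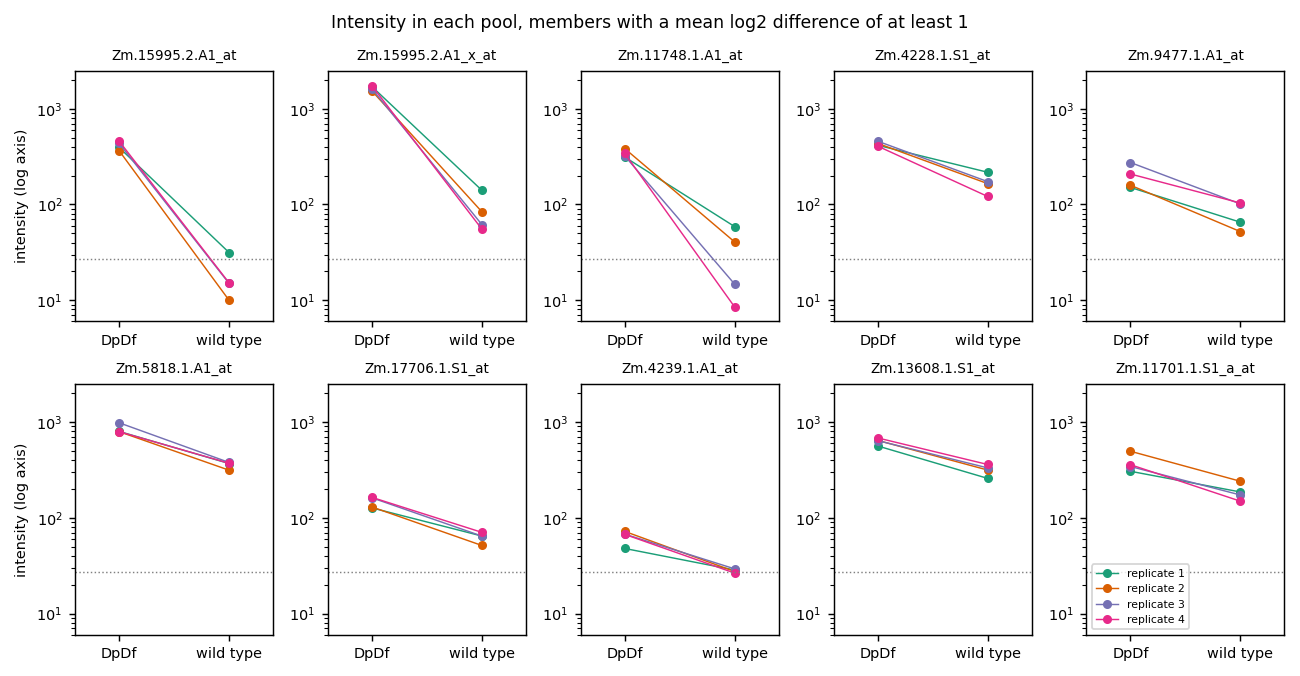
Intensity, on a log axis, in the DpDf pool and the wild-type pool of each replicate number, joined by a line, for the 10 unannotated probe sets with mean d of at least 1; the dotted line marks an intensity of 27. In the top row's 3 leftmost panels the wild-type pools lie far under the DpDf pools and spread widely, and in the other 7 panels the groups are closer and do not overlap.

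The 7 probe sets with mean d between 1 and 2 spanned low to high levels. Zm.4228.1.S1_at had intensities of 415.9, 435, 459 and 407 in DpDf, against 217, 165, 173 and 121 in wild type, with a mean d of 1.37 (SE 0.15). Zm.9477.1.A1_at had 150.7, 159, 274 and 208 in DpDf, against 65.3, 52.1, 101 and 103.6 in wild type, with a mean d of 1.32 (SE 0.26). In both the groups did not overlap, and Zm.9477.1.A1_at varied more, with replicates 3 and 4 high in both genotypes. Zm.5818.1.A1_at had 798, 794, 983 and 793 in DpDf, against 369, 314, 378 and 371 in wild type, with a mean d of 1.23 (SE 0.09). DpDf replicate 3 stood above the other DpDf pools, and wild-type replicate 2 was below the other wild-type pools.

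Zm.17706.1.S1_at had 126.8, 129.7, 162 and 163 in DpDf, against 64.5, 51.4, 64.4 and 70.4 in wild type, with a mean d of 1.21 (SE 0.13). Zm.4239.1.A1_at had low intensities, 47.8, 72.0, 67.5 and 67.1 in DpDf, against 28.5, 27.5, 29.3 and 26.4 in wild type, and a mean d of 1.17 (SE 0.13). The lowest DpDf pool of each was above the highest wild-type pool, and with values under 27 set to 27 the difference of Zm.4239.1.A1_at was 2.24-fold, against 2.25-fold with the values as deposited. Zm.13608.1.S1_at had 563, 643.5, 640.0 and 683 in DpDf, against 258, 315, 332 and 360.4 in wild type, with a mean d of 1.01 (SE 0.11). Zm.11701.1.S1_a_at had 306, 495, 343 and 359 in DpDf, against 186, 240.6, 173 and 149 in wild type, with a mean d of 1.00 (SE 0.17). Replicate 2 was the highest pool of both genotypes for that probe set, and its groups did not overlap.

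The 6 next largest were all close to 1. Zm.11701.1.S1_x_at, from the same cluster as Zm.11701.1.S1_a_at, had 213, 393, 262 and 312 in DpDf, against 153, 198, 123 and 128 in wild type, with a mean d of 0.96 (SE 0.20). Zm.14664.1.A1_at had 577, 884, 790.4 and 996 in DpDf, against 249.9, 390.5, 539 and 537 in wild type, with a mean d of 0.96 (SE 0.25). The pools of a genotype spread widely in both, the groups did not overlap, and the limma adjusted p of Zm.14664.1.A1_at was 0.0678. Zm.968.2.A1_at had 179.8, 244.5, 162.5 and 216 in DpDf, against 101, 119, 83.8 and 108 in wild type, with a mean d of 0.96 (SE 0.15). Zm.7776.1.A1_at had 509, 563, 649 and 709 in DpDf, against 282, 309, 328 and 326 in wild type, with a mean d of 0.96 (SE 0.11). In both of these the lowest DpDf pool was well above the highest wild-type pool. Zm.12882.1.S1_at had 174, 219.5, 205.5 and 211 in DpDf, against 109, 105.5, 108 and 94.8 in wild type, with a mean d of 0.95 (SE 0.09). Zm.17494.1.A1_at had 940.2, 1288, 996 and 981 in DpDf, against 624, 558, 509 and 477 in wild type, with a mean d of 0.95 (SE 0.12). DpDf replicate 2 was the highest pool in both.

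The other 35 probe sets spread over a wide range of intensities. The limit of 0.75 and the setting apart of the larger ones held their mean d to a narrow range. In 9 of them the geometric mean in wild type was under 100: Zm.5380.1.A1_at, Zm.7791.1.A1_at, ZmAffx.131.1.A1_at, Zm.11967.1.A1_at, Zm.5794.1.S1_at, Zm.17327.2.S1_at, Zm.10358.1.A1_at, ZmAffx.1143.1.A1_at and Zm.19263.1.S1_at. Their geometric means ran from 35.3 to 176 in DpDf and from 20.8 to 99.4 in wild type, with mean d of 0.75 to 0.93. In 19 it was between 100 and 500: Zm.14275.1.A1_at, Zm.2853.1.A1_at, Zm.11636.1.A1_at, Zm.17329.1.A1_at, Zm.8116.1.A1_a_at, Zm.12293.1.S1_at, Zm.17087.1.S1_at, ZmAffx.477.1.A1_at, Zm.10681.1.A1_at, Zm.16289.1.A1_at, Zm.13346.1.S1_at, Zm.15637.1.A1_a_at, Zm.9595.1.A1_at, Zm.1099.1.A1_at, Zm.16351.1.A1_at, Zm.1702.1.A1_at, Zm.1106.1.S1_at, Zm.3693.1.A1_at and Zm.4069.1.A1_at. Their geometric means ran from 175 to 785 in DpDf and from 101 to 422 in wild type, with mean d of 0.78 to 0.93. In 7 it was 500 or more: Zm.5170.1.S1_at, Zm.2221.1.S1_at, Zm.5108.1.A1_at, Zm.4381.1.A1_at, Zm.3483.1.A1_at, Zm.3913.1.A1_at and Zm.6352.1.A1_at. Their geometric means ran from 943 to 3482 in DpDf and from 533 to 1983 in wild type, with mean d of 0.78 to 0.82. Over all 51, Spearman's rho between mean d and mean log2 intensity was -0.08, as a description of probe sets measured on the same 8 arrays.

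Within these 35 the spread of the pools differed, and 4 probe sets picked after their values were seen are given as examples. Zm.5108.1.A1_at, with the highest intensities, had 3271, 3342, 3783 and 3556 in DpDf, against 1996, 1900.0, 2031 and 2007 in wild type, with a mean d of 0.81 (SE 0.06). Zm.19263.1.S1_at, with the smallest mean d, had 144, 145, 142 and 143 in DpDf, against 87.0, 80.4, 89.4 and 84.7 in wild type, with a mean d of 0.75 (SE 0.07). In both the pools of a genotype were nearly equal and the groups were far apart. Zm.14275.1.A1_at had 306, 732, 259 and 323 in DpDf, against 200, 306, 129.9 and 179 in wild type, with a mean d of 0.93 (SE 0.34). Zm.1099.1.A1_at had 117, 156, 219.9 and 274 in DpDf, against 65.1, 103.8, 123 and 137 in wild type, with a mean d of 0.82 (SE 0.29). Both had overlapping groups although DpDf was above wild type in every pair: replicate 2 was high in both genotypes for Zm.14275.1.A1_at, and replicate 1 was low in both for Zm.1099.1.A1_at. Without DpDf replicate 2 the difference of Zm.14275.1.A1_at was 0.60. With replicate number as a block in the fit, the SEs of these 4, in the order given, were 0.05, 0.07, 0.10 and 0.08. The wide SEs of the last 2 without the block thus hold spread that both pools of a replicate number shared. The rule asks for a d of at least 0.4 in every pair, which favours shared spread, so nothing more is read from this.

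By the criterion for on-off transcripts, all 4 wild-type values under 27, 1 probe set is kept apart. ZmAffx.1143.1.A1_at had 43.6, 43.9, 30.8 and 26.5 in DpDf, against 21.1, 23.2, 21.6 and 17.8 in wild type. All 4 wild-type pools and DpDf replicate 4 were under 27, and no detection call is used here, so low and absent signals are not separated. Its mean d was 0.76 (SE 0.18) on the values as deposited. With values under 27 set to 27 the difference was 0.40, with a limma adjusted p of 0.233, and with the 3′ minus 5′ covariate it was 0.51, with an adjusted p of 0.432. Its DpDf geometric mean of 35.3 was at least 1.31-fold the limit of 27. Its wild-type geometric mean of 20.8 was under the limit of the level filter, which it passed only through its DpDf pools. The probe sets with the largest differences, Zm.15995.2.A1_at and Zm.11748.1.A1_at, did not meet the criterion because wild-type replicate 1, and replicate 2 as well for Zm.11748.1.A1_at, lay above 27.

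Where a transcript cluster had other probe sets, these did not always move with the chosen one. Of the 51, 41 were alone in their cluster and 10 had at least 1 companion, with 11 companions outside the chosen set, of which 8 passed the level filter. The cluster of the largest differences held companions with much smaller ones. Zm.15995.1.A1_a_at had 3142, 3073, 3014 and 3166 in DpDf, against 2069, 2413, 2598 and 2455 in wild type, a mean d of 0.38. Zm.15995.1.A1_at had 359, 314, 330.5 and 356 in DpDf, against 314, 349, 340.3 and 354 in wild type, a mean d of 0.00. The cluster thus held mean differences from 0.00 in Zm.15995.1.A1_at to 4.65 in Zm.15995.2.A1_at in the same RNA, the last of these being 14.7-fold with values under 27 set to 27, against 25.2-fold as deposited.

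The cluster of Zm.13346.1.S1_at held an alpha tubulin, a subunit of microtubules. Zm.13346.1.S1_at had 203.5, 218, 195 and 188 in DpDf, against 115, 107, 129 and 99.6 in wild type, a mean d of 0.84. Zm.13346.2.S1_s_at, annotated as LOC100037751 with the synonyms TUA1 and TUBA1 and placed on chromosome 1 by RefSeq, had 3638, 3664, 5027 and 4506 in DpDf, against 6147, 5185, 6462 and 5352 in wild type, a mean d of -0.47. The second was lower in DpDf in all 4 pairs, while the chosen probe set was higher in all 4. A further probe set of that gene, Zm.13346.2.A1_at, had a mean d of 0.19 with pair 3 below 0.

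ZmAffx.1143.1.S1_at, from the cluster of the on-off probe set, had 355, 316, 335 and 308 in DpDf, against 256, 193, 214 and 223 in wild type. Its mean d of 0.57 was close to the copy ratio. The ID of this companion is of orientation S and that of the on-off probe set of orientation A. Probe sequences were not at hand, so whether both read the same transcript was not tested. The cluster of Zm.17327.2.S1_at, where mean d was 0.79, had companions with mean d of 0.47 for Zm.17327.1.S1_at and 0.22 for Zm.17327.2.S1_a_at. In the cluster of Zm.968.2.A1_at, where mean d was 0.96, Zm.968.1.A1_at had a mean d of -0.06. The remaining companions, Zm.968.2.S1_at, Zm.17329.2.A1_at and ZmAffx.477.1.S1_at, had geometric means of 7.47, 5.48 and 11.2, below the level filter.

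The design features of the 51 were set beside those of the 11237 from which they came. The plain suffix _at was carried by 46, or 90.2% (86.3% of the 11237), _a_at by 3, or 5.88% (8.30%), and _x_at by 2, or 3.92% (3.58%), while the suffix _s_at, for probe sets shared between genes, was carried by none (1.83%). Orientation A was carried by 36, or 70.6% (65.5%). The median of their geometric mean intensities was 213, and that of the 11237 was 296. These are shares of a chosen set and no test was made of them.

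Against the spread of the pools, limma with genotype as the only term gave an adjusted p under 0.05 to 45 of the 51, against 4.03% of all 12341 tested probe sets called higher in DpDf. The choice of the 51 on this contrast fixes the direction, so nothing is read from the count. The adjusted p of the other 6 was 0.0678 for Zm.14664.1.A1_at, 0.193 for Zm.14275.1.A1_at, 0.103 for Zm.16289.1.A1_at, 0.0953 for Zm.2221.1.S1_at, 0.181 for Zm.1099.1.A1_at and 0.0811 for Zm.5794.1.S1_at. With replicate number as a block, all 51 passed, and 6.81% of all tested probe sets were called higher. The limit on d in every pair favours small SEs in this fit, so nothing is read from that count either. With the 3′ minus 5′ measure as a covariate 31 passed, and 2.47% of all tested were called higher. The median difference of the 51 was 0.89 with the covariate and 0.88 without it, and single differences moved both ways. That of Zm.2221.1.S1_at was 0.46, against 0.82 without the covariate, and that of Zm.9477.1.A1_at was 1.76, against 1.32. For Zm.11701.1.S1_a_at the difference was 1.01 with the covariate and 1.00 without it, while its SE was 0.24, against 0.17.

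Whether a level lies above the copy ratio is a narrower question than whether it differs. The intervals come from the values that chose the 51, with mean d of at least 0.75, so the counts describe their error and test nothing. The 95% limma interval lay wholly above 0.58 for 26 of the 51, and for 0.243% of all tested probe sets. For the other 25 the interval held the copy ratio. With the replicate block the interval lay above the copy ratio for 45 and held it for 6, and lay above it for 0.446% of all tested. With the 3′ minus 5′ covariate it lay above for 22 and held it for 29, and lay above it for 0.292% of all tested. With genotype as the only term, SEs ran from 0.06 to 0.52.

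The replicate pairs did not give equal differences. The median d of the 51 was 0.74 in pair 1, 0.94 in pair 2, 0.93 in pair 3 and 0.96 in pair 4, while the medians over all tested probe sets lay between -0.04 and 0.00. Pair 1 gave the lowest d in 30 of the 51, pair 2 in 8, pair 3 in 8 and pair 4 in 5. Pair 1 therefore set the least difference in 58.8% of the chosen probe sets, against 26.1% of all tested probe sets. It was also the pair with the largest 3′ minus 5′ difference, 0.71, and whether this has a part in the lower d was not tested. A d of at least 0.4 was reached by 5.12% of the 11237 unannotated probe sets in pair 1, 6.9% in pair 2, 6.05% in pair 3 and 5.89% in pair 4. The rule set limits on these values of d, so nothing is read from the counts and shares of the chosen probe sets.

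**Figure D3:**
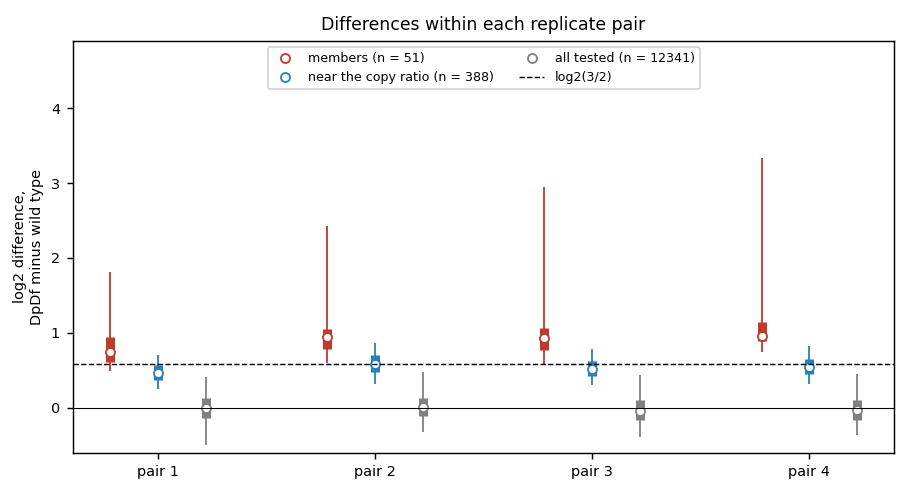
Difference in log2 intensity within each replicate pair, DpDf minus wild type, for the 51 chosen probe sets (red, labelled members), for 388 unannotated probe sets nearer the copy ratio (blue, described below) and for all 12341 tested (grey); circles are medians, thick bars the interquartile range, thin bars the 5% to 95% range, and the dashed line the copy ratio. The red median of pair 1, 0.74, sits under those of pairs 2 to 4, which are 0.94, 0.93 and 0.96.

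Among the DpDf pools, replicate 2 was the highest for 29 of the 51, replicate 4 for 15, replicate 3 for 7 and replicate 1 for none. Over all tested probe sets these shares were 25.6%, 24.1%, 21.6% and 28.7%. DpDf replicate 1 was the lowest DpDf pool for 27 of the 51, and for 26.8% of all tested. Among the wild-type pools, replicate 2 was the highest for 19, replicate 1 for 15, replicate 3 for 9 and replicate 4 for 8. The shares over all tested, in the same order, were 24.4%, 27.8%, 30.4% and 17.4%. DpDf replicate 1 was thus the highest pool for no chosen probe set although it was the highest most often over the whole array. The same number was highest in both genotypes for 25 of the 51, or 49.0%, against 40.6% of all tested. The 51 also varied more among pools of a genotype, with median SDs of 0.21 in DpDf and 0.21 in wild type on the log2 scale, against 0.12 in DpDf and 0.13 in wild type over all tested. The SD was lower in DpDf than in wild type for 24 of the 51. The rule chose the 51 from these same intensities, so nothing is read from their ranks, shares and SDs.

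The same thresholds were also applied to 3 pairs, and d was read in the pair left out. The rule and its thresholds were set with earlier results of these data known, so the pair left out is no independent check. Leaving out pairs 1, 2, 3 and 4 chose 78, 52, 58 and 48 unannotated probe sets, of which 49, 46, 47 and 44 were among the 51. The median d in the pair left out was 0.61, 0.89, 0.83 and 0.93. It was above 0 in 77 of 78, 52 of 52, 56 of 58 and 47 of 48 probe sets, while 50.6%, 51.1%, 41.8% and 42.6% of the 11237 unannotated probe sets were above 0 in pairs 1 to 4. It was above the copy ratio in 43, 47, 47 and 44, which are 55.1%, 90.4%, 81.0% and 91.7% in pairs 1 to 4. Of the 11237, 1.77%, 3.34%, 2.36% and 2.64% were above the copy ratio in those pairs. The lowest values were -0.17 for Zm.3384.1.A1_a_at in pair 1, 0.36 for Zm.4324.1.A1_at in pair 2, -0.73 for Zm.10172.1.A1_at in pair 3 and -0.52 for ZmAffx.779.1.S1_at in pair 4. The 4 sets share most of their members, and no test was made across them.

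**Figure D4:**
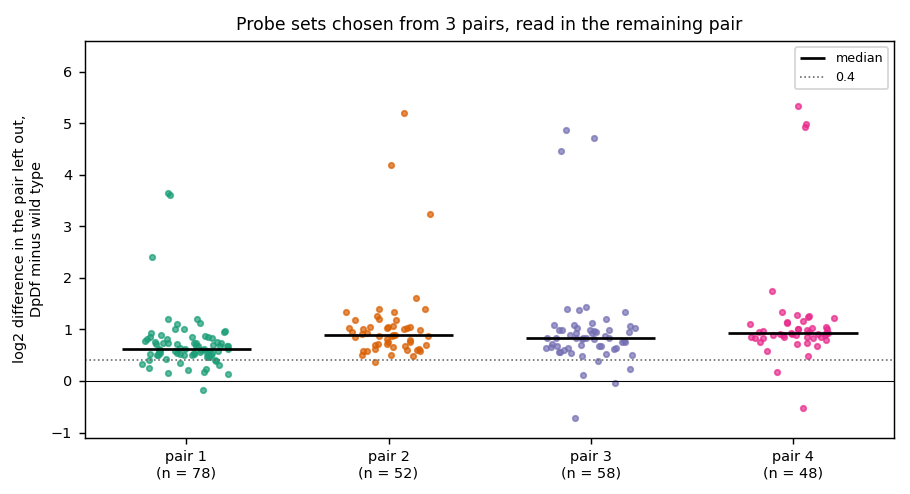
Difference in log2 intensity, DpDf minus wild type, in the pair that was not used, for the unannotated probe sets chosen from the other 3 pairs, 1 point each, with the median as a bar and 0.4 as a dotted line. The medians are 0.61, 0.89, 0.83 and 0.93 for pairs 1 to 4, and 4 points in all lie below 0.

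The seed source was not used in the choice, and the levels of the 51 were compared between replicates 2 and 4 and replicates 1 and 3 at equal genotype. None of the 51 passed limma's adjusted p of 0.05, and 4 of all tested probe sets did, 0.0324%. At an unadjusted p under 0.05 there were 10 of the 51, or 19.6%, against 18.3% of all tested. Both pools of a replicate number came from 1 planting, so this contrast sets 2 plantings against 2, and p-values that take the 8 pools as independent are too small. With planting as a random block, added after seeing the data, the correlation within plantings was 0.22, none of the 51 and 0.0081% of all tested passed limma's adjusted p, and 7 of the 51, or 13.7%, had an unadjusted p under 0.05, against 13.8% of all tested. The difference was above 0 for 33 of the 51, or 64.7%, against 48.0% of all tested, and below 0 for 18, with a median of 0.05 and a range of -0.42 to 0.66. The smallest adjusted p was 0.118, or 0.224 with the random block, and the first was for Zm.968.2.A1_at, which was 0.36 higher in replicates 2 and 4 on the log2 scale. The median size of the difference was 0.17 for the 51 and 0.095 for all tested.

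Among the wild-type pools alone, none of the 51 and 0% of all tested passed limma's adjusted p, with 4 of the 51, or 7.84%, and 10.4% of all tested at an unadjusted p under 0.05. Differences between the seed sources ran from -0.82 to 0.66, with 25 above 0 and 26 below. The difference between DpDf and wild type was then compared between the seed sources, as an interaction. None of the 51 and 0% of all tested passed limma's adjusted p, also with the replicate block, and the smallest adjusted p of the 51 was 1.00. At an unadjusted p under 0.05 there was 1 of the 51, Zm.17087.1.S1_at at 0.46, and 2.00% of all tested. The interaction was above 0, meaning a larger d in replicates 2 and 4, for 39 of the 51, or 76.5%, against 54.0% of all tested, with a median of 0.14 against 0.01. Pair 1, the pair with the lowest d, belongs to the other seed source, and the choice of a least d in each pair limits how far the interaction can go.

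**Figure D5:**
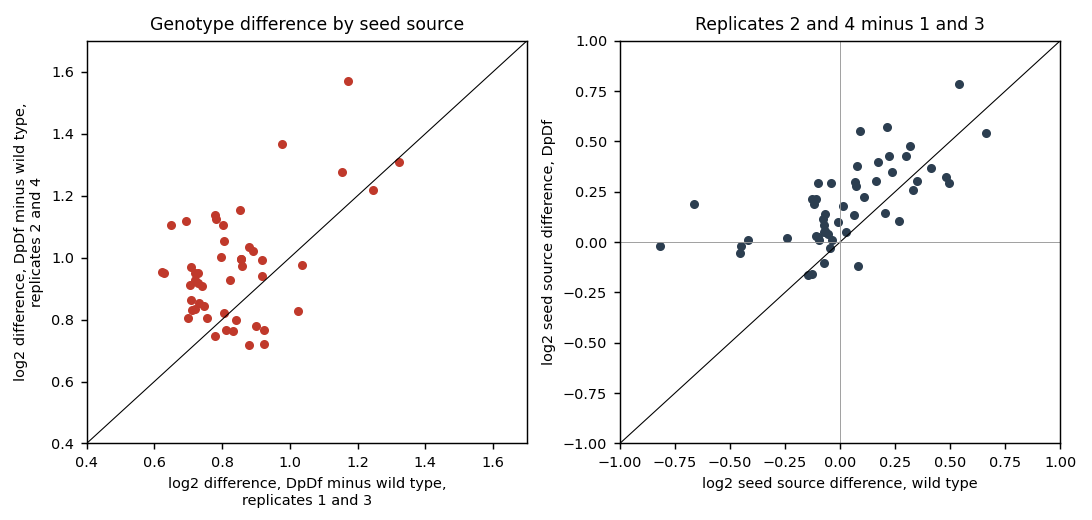
On the left, mean d in replicates 2 and 4 against mean d in replicates 1 and 3 for the chosen probe sets with mean d under 2, the 3 largest left out; on the right, the log2 level in replicates 2 and 4 minus that in replicates 1 and 3, in DpDf against wild type, for all 51. The diagonals mark equal values, and on the right 39 of the 51 points lie above the diagonal.

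Probe sets that carry a gene symbol met the same thresholds at nearly the same rate. Of 1104 tested probe sets with a symbol 5 met them, 0.453%, against 0.454% of those without. RefSeq places the genes of all 5 on chromosome 5. Their arm and the share of the 1104 on that chromosome are not given here, so nothing is read from this count. LOC542243 had 127.5, 158, 120.2 and 154 in DpDf, against 14.3, 8.33, 15.7 and 10.7 in wild type, a mean d of 3.55. All 4 of its wild-type values were under 27, and its DpDf geometric mean of 139 was at least 5.15-fold that limit. It too passed the level filter only through its DpDf pools. The others were pht1, a phosphate transporter gene, with a mean d of 1.22, LOC542315, with the synonym sbe1 for a starch branching enzyme, with 1.05, LOC542484, with the synonym sig6 for a plastid sigma factor, with 0.91, and LOC541642, with the synonym hk3 for a cytokinin receptor, with 0.87. Chromosomes are not given for the 51, so their share on chromosome 5 was not tested.

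A wider set of unannotated probe sets, with mean d of 0.4 to 0.75 and each d at least 0.2, was defined after seeing the data and held 388. Its median mean d was 0.53, and its median intensity was 363, while that of the 51 was 213. Its medians by pair were 0.47, 0.59, 0.52 and 0.54, and pair 1 gave the lowest d in 43.6% of it. The interaction was above 0 in 69.3% of this wider set and 76.5% of the 51. Over all tested probe sets, pair 1 gave the lowest d in 26.1%, and the interaction was above 0 in 54.0%. The median d was lowest in pair 1 in both sets. Limits on these same values of d chose both sets, so the wider set is no independent check on the 51.

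The limit of 0.75 does not part the probe sets into separate groups. Just inside it were Zm.19263.1.S1_at at 0.753, ZmAffx.1143.1.A1_at at 0.763 and Zm.10358.1.A1_at at 0.771, and just outside were Zm.17395.1.A1_at at 0.748, ZmAffx.15.1.A1_at at 0.748 and Zm.6298.1.A1_at at 0.746. With mean d of at least 0.75, 11 unannotated probe sets were left out for a d under 0.4, and the nearest were Zm.316.1.A1_at with a lowest d of 0.386, Zm.4324.1.A1_at with 0.362 and Zm.12157.1.S1_at with 0.350. The lowest d of the chosen probe sets was 0.414, in Zm.3483.1.A1_at.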

How the data were processed

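The deposited files hold a linear intensity for every probe set on every array. MAS5 is named in the submitters' processing notes, with no version and no role, and the scaling is not stated in the sources used here. No normalization or pseudocount was added before log2. The members and lists were chosen with earlier results of these data known. Probe sets without a gene symbol were taken from the platform annotation, and symbols and chromosomes of named genes from RefSeq.

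Differences were fitted with limma 3.58.1 in R 4.3.3 (lmFit, eBayes with a mean-variance trend) and p-values were adjusted by Benjamini and Hochberg's method over the 12341 probe sets with a geometric mean intensity of at least 26.9; genotype was the only term, and the seed source contrasts used genotype and seed source, or 1 mean for each combination. The fits were tested on simulated data. Per the labels' protocols, both pools of a replicate number were grown from 1 planting of sibling seed, so the numbers pair the pools: the correlations of their deviations from the group means were 0.36, 0.51, 0.56 and 0.33 for pairs 1 to 4. All members are named. All 8 values are given for those with mean d of at least 1, the next 6, and the on-off member. The 8 arrays limit the precision; p-values measure the spread between pools. Alternatives covered normalization, pseudocount, level filter, replicates left out, the replicate block, planting as a random block for seed source, and the 3′ minus 5′ covariate.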

Additional observations from a re-analysis of the deposited data

Results flagged for a closer look

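Each of the 51 probe sets was checked in 2 groups of 4 pools, DpDf and wild type, for a pool standing apart. The gap to the nearest pool was divided by the group's range, both on the log2 scale. In 7 of 102 groups this ratio was above Dixon's 95% critical value for 4 samples. Chance gives about 1 in 20, and the share over all tested probe sets is not given here, so nothing is read from the count. In Zm.5818.1.A1_at, DpDf replicate 3 (983) was above the others, which were 793 to 798, with a ratio of 0.972. In the same probe set wild-type replicate 2 (314) was below the others, with a ratio of 0.860. In Zm.5170.1.S1_at, wild-type replicate 1 (1950) was above the others, which were 1770 to 1775, with a ratio of 0.971. In Zm.3483.1.A1_at, DpDf replicate 2 (1520) was above the others, with a ratio of 0.971. In Zm.16351.1.A1_at, wild-type replicate 2 (384) was above the others, with a ratio of 0.865. In Zm.3913.1.A1_at, wild-type replicate 2 (670) was below the others, with a ratio of 0.878. In Zm.10358.1.A1_at, wild-type replicate 1 (61.7) was above the others, with a ratio of 0.879.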

How the results depend on the processing

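The rule gave 51 probe sets, 48 to 78 with 1 replicate number left out (78 without replicate 1, 49 of them shared), 149 with a mean d of at least log2(3/2) and 10 with a mean d of at least 1. Limma called 602 probe sets for genotype, 1254 with the replicate block, 338 with the 3′ minus 5′ covariate, and 393 (without wild-type replicate 4) to 646 with 1 pool left out. It called 4 for seed source, 1 with planting as a random block, and 0 to 35 with 1 pool left out, 35 without wild-type replicate 3 and 0 without wild-type replicate 1 or DpDf replicate 3. Among wild-type pools it called 0, and 1 without the level filter. The interaction gave 0 in every setting, the replicate block included. The alternative settings gave 862 differences for the 51, each of 1 probe set under 1 setting, and none of them reversed. The choice of the 51 on this contrast fixes the direction, so nothing is read from this. Of the 862, 803 kept their side of the threshold, 49 lost it (14 with the covariate) and 10 gained it, and the cause was not tested. Differences moved by over 1.5 times in 5 of them: Zm.14275.1.A1_at was 0.60 without DpDf replicate 2, Zm.2221.1.S1_at was 0.46 with the covariate, and ZmAffx.1143.1.A1_at was 0.49 with a pseudocount of 16, 0.51 with the covariate and 0.40 with values under 27 set to 27.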

Other observations

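With the signs of all thresholds turned, 20 unannotated probe sets that passed the level filter were lower in DpDf than in wild type, against the 51 that were higher. A further 2 unannotated probe sets met the thresholds on d but not the level filter.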
